A study of Mus musculus with 9 samples.

Results

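The Hes and Hey genes are the best known transcriptional targets of Notch signalling, and 6 genes are described here: Hes1, Hes5, Hes6, Hey1, Hey2 and the Notch feedback gene Nrarp. They were taken by symbol from the deposited count table, as 6 of its 53379 gene IDs, by a rule that uses no measured value, though earlier results of these data were known when the list was made. Their RNA was read in GFP+ cells of the C57BL/6 mouse cortex, sorted by flow cytometry at E15.5 (embryonic day), 48 hours after in utero electroporation at E13.5. Short hairpin RNAs (shRNAs) were delivered in 3 groups: 3 hairpins against circSlc45a4, a circular RNA that carries the name of the Slc45a4 gene, 2 hairpins against that gene's linear mRNA, or 1 scrambled sequence (scramble). Each group held 3 libraries, which the series text calls biological replicates. All 9 libraries therefore come from electroporated cells that carry a GFP label, and no group was left without a delivered RNA. The scrambled control is called a shRNA in the sample labels and a siRNA in the series text. The sources used here do not give the promoter that drives the hairpins or the number of embryos in a library. Since the hairpins of a group were used as a mix, the values do not separate one hairpin from another. The libraries were made from polyA RNA. A circular RNA has no polyA tail, so no level of circSlc45a4 is given.

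Binding of a Delta or Jagged ligand to a Notch receptor on a neighbouring cell releases the receptor's intracellular domain, which enters the nucleus and joins the DNA-binding protein RBPJ and a Mastermind coactivator. The genes switched on in this way include Hes1, Hes5, Hey1 and Hey2, which encode basic helix-loop-helix (bHLH) repressors that recruit Groucho (Tle) corepressors. In the embryonic cortex these repressors hold radial glia, the apical progenitors, in an undifferentiated state by keeping proneural genes such as Neurog2 down. Hes6 lacks this action, antagonises Hes1 and is found in cells that become neurons. Nrarp is another Notch target, and its protein binds the Notch intracellular complex and dampens it.

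Total counts ranged from 21073174 to 45469298 per library. Levels are given as CPM, each count as a share of its library's total after trimmed mean of M-values scaling. The targeted Slc45a4 mRNA had 31.4, 33.6 and 34.0 CPM in the scramble libraries and fell without overlap to 13.3, 18.5 and 17.4 CPM after its own knockdown. After circSlc45a4 knockdown it had 25.4, 25.3 and 24.7 CPM, also below every scramble library, a change whose call was lost in 7 of 20 alternatives. The X inactivation RNA Xist was at or under 0.239 CPM in the 3 scramble libraries and at 264 CPM or more in the other groups, except Slc45a4 mRNA knockdown replicate 3 with 0.194 CPM. The sex of the embryos was thus not balanced between the groups, and its part in the results was examined only by a fit with Xist as a covariate. Within a group Xist differed widely only in the Slc45a4 mRNA knockdown, through replicate 3. That fit therefore rests largely on that library, and it cannot separate sex from group. Slc45a4 mRNA knockdown replicate 1 had no count of the Y-linked gene Ddx3y, which stood at 20.01 CPM or more elsewhere, and differed most from the others of its group, with a chi-square of the counts per gene of 41.6 and 37.6, against 7.74 to 24.5 for the other replicate pairs.

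RefSeq promoter sequences (build GRCm38.p6) were matched by symbol for 4 of the 6 genes, namely Hes5, Hes6, Hey2 and Nrarp. They were searched on both strands, in windows from 250 bases before to 50 bases after the start, for GTGGGAA, the core of the site RBPJ binds. The upstream parts of 3 genes are shown because Notch output passes through such sites, and because these genes took different courses in the knockdowns described below. Each runs 5′ to 3′ on the gene's strand, from 250 bases before the start through the first 25 bases transcribed. Capitals mark GTGGGAA, its reverse complement, or the E box CACGTG, a palindrome that Hes and Hey proteins can bind.
Hes5: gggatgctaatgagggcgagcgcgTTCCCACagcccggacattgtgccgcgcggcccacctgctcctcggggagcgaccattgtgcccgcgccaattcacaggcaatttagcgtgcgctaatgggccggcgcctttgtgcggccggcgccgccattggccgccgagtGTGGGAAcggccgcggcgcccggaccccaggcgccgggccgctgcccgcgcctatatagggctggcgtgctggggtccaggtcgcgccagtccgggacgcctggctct
Hey2: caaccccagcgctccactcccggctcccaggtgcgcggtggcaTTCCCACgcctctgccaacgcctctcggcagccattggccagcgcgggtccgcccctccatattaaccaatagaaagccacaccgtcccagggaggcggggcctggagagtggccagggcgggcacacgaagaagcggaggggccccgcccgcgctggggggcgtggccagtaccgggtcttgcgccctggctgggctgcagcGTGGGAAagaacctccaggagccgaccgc
Nrarp: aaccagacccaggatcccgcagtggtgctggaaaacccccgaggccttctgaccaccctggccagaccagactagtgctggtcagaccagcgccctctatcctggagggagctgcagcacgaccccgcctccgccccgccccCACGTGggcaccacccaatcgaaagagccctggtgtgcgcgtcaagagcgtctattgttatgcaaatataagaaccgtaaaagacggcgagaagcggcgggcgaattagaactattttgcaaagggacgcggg
The stretches lie at chr4:154960673-154960947 on the plus strand for Hes5, chr10:30842759-30843033 on the minus strand for Hey2 and chr2:25180508-25180782 on the plus strand for Nrarp. Hes5 held 2 matches to GTGGGAA, which begin at positions -226 and -83 from the start. Hey2 also held 2, at -207 and -4. Of 32851 promoter windows of the same length, 6.38% held at least 1 match and 0.256% held 2 or more. No match to these letters was found in the windows of Nrarp and Hes6. Nrarp held 1 CACGTG, at -108, a motif present in 7.15% of all windows. The N box, searched as CACNAG, was found 2 times in the window of Nrarp, and 2 times in 1 of the 2 windows of Hes6. Of all windows 42.5% held at least 1 and 11.3% held 2 or more. The letters CACGCG were also searched and had no match in the windows of these genes, beside 9.27% of all windows with at least 1. A match describes the letters in the window and is not a measured binding site. A link between matches and the courses of the genes in the knockdowns was not tested.

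All 6 genes passed the filter on low counts, which left 17760 genes. To compare one gene with another, CPM was divided by the exon length in kilobases (kb). Per kb, Hes6 had the highest level in scramble, with 64.7 ± 5.53 CPM per kb (SD, n = 3). Nrarp followed with 19.5 ± 1.91, Hey1 with 15.4 ± 2.28 and Hes5 with 14.0 ± 4.45 CPM per kb. Hey1 and Hes5 overlapped between libraries, so their order is not resolved. Hes1 stood lower at 4.01 ± 0.953 and Hey2 lowest at 0.371 ± 0.0794 CPM per kb. Hes6 at the top and Hey2 at the bottom kept their places in both knockdowns. In the circSlc45a4 knockdown the middle of the order was Nrarp with 24.8 ± 1.43, Hey1 with 18.0 ± 1.58, Hes5 with 17.1 ± 12.5 and Hes1 with 10.8 ± 2.24 CPM per kb, where Hes5 overlapped both of its neighbours. In the Slc45a4 mRNA knockdown it was Hes5 with 18.5 ± 14.9, Nrarp with 13.2 ± 3.95, Hey1 with 10.1 ± 0.433 and Hes1 with 6.91 ± 2.54 CPM per kb. There Nrarp overlapped both Hes5 and Hey1.

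The 6 genes did not move as a block. Hes1 was the one member called in the circSlc45a4 knockdown, where it rose, while Hey1, Hey2 and Nrarp were called in the Slc45a4 mRNA knockdown, where they fell. A call is a Benjamini-Hochberg adjusted p under 0.05 over all 17760 genes in the quasi-likelihood F test of edgeR. In the circSlc45a4 knockdown against scramble 1 of 6 members was higher and 0 lower, against 14.1% of all genes higher and 13.0% lower. In the Slc45a4 mRNA knockdown against scramble 3 of 6 were lower and 0 higher, against 9.09% of all genes lower and 8.92% higher. In the direct comparison of the knockdowns 3 of 6 were higher in the circSlc45a4 knockdown and 0 lower, against 13.8% of all genes higher and 12.3% lower. With upper-quartile scaling the share of higher genes among the calls moved from 52.8% to 42.1% in the direct comparison and from 52.1% to 42.3% in the circSlc45a4 knockdown against scramble. With Xist as a covariate it was 64.1% in the latter and 60.9%, from 49.5%, in the Slc45a4 mRNA knockdown against scramble. The median log2 fold change of the 6 members was 0.25, -0.17 and 0.74 in these comparisons, beside -0.01, 0.01 and -0.02 over all genes. Both knockdowns are set against the same scramble libraries, so their changes share the scramble error. In bulk RNA, fewer cells of a type and less RNA per cell cannot be told apart.

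**Figure D1:**
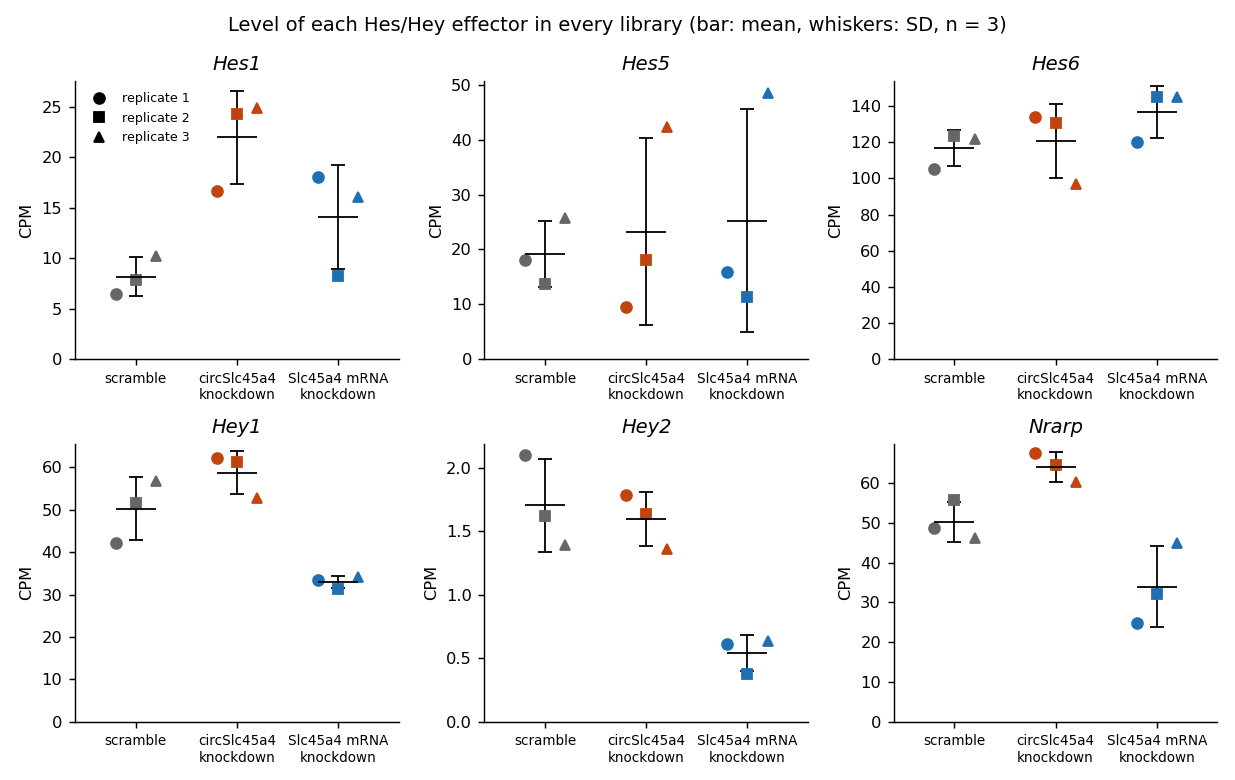
Level in CPM (y axis, from 0) of each of the 6 genes in every library of the 3 groups, with the mean as a bar and the SD as whiskers. Hes1 is higher in all 3 circSlc45a4 knockdown libraries than in scramble, Hey1 and Hey2 are lower in all 3 Slc45a4 mRNA knockdown libraries than in any other, and Hes5 is highest in replicate 3 of every group.

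Hes1 (ENSMUSG00000022528.7, GRCm38 chromosome 16, 30064384 to 30067796, plus strand), a repressor that keeps radial glia undifferentiated, was read at 6.41, 7.84 and 10.25 CPM in the scramble libraries. Its levels after circSlc45a4 knockdown were 16.7, 24.3 and 24.9 CPM. Every library of that group was above every scramble library, and the mean went from 8.17 ± 1.94 to 21.9 ± 4.57 CPM (SD, n = 3), a 2.69-fold difference. The log2 fold change was 1.42 ± 0.26 (SE, adjusted p = 0.00147). Replicates 1 and 3 of the Slc45a4 mRNA knockdown, at 18.0 and 16.0 CPM, lay above scramble, but replicate 2, at 8.20 CPM, lay within it. The mean was 14.1 ± 5.18 CPM and the log2 fold change 0.77 ± 0.26 (95% interval 0.21 to 1.34), which did not pass the threshold (adjusted p = 0.0577). Without replicate 2 of the Slc45a4 mRNA knockdown it was 1.05 (adjusted p = 0.00583), and the Wald test of DESeq2 gave an adjusted p of 0.0132 with all libraries. The direct difference between the knockdowns, 0.64 ± 0.25 (0.10 to 1.19), was not called either (adjusted p = 0.0782), though DESeq2 gave an adjusted p of 0.0308, and without Slc45a4 mRNA knockdown replicate 1 it was 0.86 (adjusted p = 0.0337). A Hes1 change in one knockdown and not in the other is therefore not shown to differ between them.

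Genes that mark apical progenitors were read beside Hes1. After circSlc45a4 knockdown 7 of 9 such markers rose and 0 fell, beside 14.1% of all genes higher and 13.0% lower. Their summed level was 1528 to 1639 CPM, against 888 to 1163 CPM in scramble. The marker Fabp7, the brain lipid-binding protein of radial glia and itself a Notch target, went from 136, 142 and 112 CPM to 306, 368 and 372 CPM. In the Slc45a4 mRNA knockdown 3 of 9 markers rose and 0 fell, beside 8.92% of all genes higher and 9.09% lower. The sum there was 989.5 to 1271 CPM, which overlapped scramble. Markers of basal progenitors summed to 1711 to 1787 CPM in scramble, 1291 to 1478 CPM in the circSlc45a4 knockdown and 1614 to 1693 CPM in the Slc45a4 mRNA knockdown. Those of newborn neurons summed to 6556 to 7930, 6112 to 6555 and 5630 to 6181 CPM in the same order. Of 7 basal markers 4 fell and 0 rose in the circSlc45a4 knockdown, and 1 fell and 0 rose in the Slc45a4 mRNA knockdown. The 8 neuron markers were split, with 3 lower in the circSlc45a4 knockdown and 4 in the Slc45a4 mRNA knockdown. Map2 rose in both, from 560, 492 and 488 CPM to 794, 826 and 934 CPM (circSlc45a4) and 585, 628 and 649 CPM (Slc45a4 mRNA). Sums of markers of other cells differed too. Markers of Cajal-Retzius cells summed to 21.1 to 54.9 CPM in scramble, 71.3 to 245.6 CPM in the circSlc45a4 knockdown and 13.2 to 22.3 CPM in the Slc45a4 mRNA knockdown. Of the 3 tested only Reln was called, with a rise in the circSlc45a4 knockdown of 2.15 ± 0.41 (adjusted p = 0.00182). Nearly all of the sum was Reln, with 244, 137 and 70.2 CPM in that knockdown. The other listed markers, Trp73, Calb2 and Lhx5, were under 1 CPM in every library, so the sum describes 1 gene. Microglial markers summed to 2.41 to 4.11 CPM in scramble, 6.08 to 10.8 CPM in the circSlc45a4 knockdown and 3.07 to 8.04 CPM in the Slc45a4 mRNA knockdown. Of 6 tested, 1 was higher in the circSlc45a4 knockdown, near the 14.1% of all genes. The part of these shifts in the results on Hes1 and the other members was not tested.

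Hes5 (ENSMUSG00000048001.7, chromosome 4, 154960923 to 154962371, plus strand), the repressor that overlaps most with Hes1 in radial glia, varied more between replicates than between groups. Its scramble levels were 18.1, 13.7 and 25.7 CPM. The circSlc45a4 knockdown gave 9.48, 18.0 and 42.2 CPM and the Slc45a4 mRNA knockdown 15.9, 11.3 and 48.5 CPM. Replicate 3 was the highest library of each group, and the groups overlapped throughout. The highest library exceeded the lowest 1.88-fold in scramble, 4.46-fold in the circSlc45a4 knockdown and 4.28-fold in the Slc45a4 mRNA knockdown. Hes5 had 378 to 1890 counts per library. The log2 fold change was 0.28 ± 0.53 (95% interval -0.86 to 1.42, adjusted p = 0.734) in the circSlc45a4 knockdown and 0.40 ± 0.53 (-0.74 to 1.54, adjusted p = 0.651) in the Slc45a4 mRNA knockdown. Both intervals include a doubling, so a change of that size in Hes5 is not excluded. Without a filter on low counts the Slc45a4 mRNA knockdown value, 0.40, was called (adjusted p = 0.0212), the one call of Hes5 in the fits that were run. With Xist as a covariate Hes5 was at 1.87 (adjusted p = 0.103) in the circSlc45a4 knockdown and 1.35 (adjusted p = 0.1975) in the Slc45a4 mRNA knockdown. Leaving out 1 library was enough to turn its direction in all 3 comparisons. An exon of the opposite-strand model Gm20421 overlaps 433 bases of Hes5 and had 0 to 14 counts. The sources used here do not state whether the counting used strand, so reads of the pair cannot be told apart.

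Hey1 (ENSMUSG00000040289.8, chromosome 3, 8663359 to 8667256, minus strand), a Hes-related repressor, had scramble levels of 42.1, 51.7 and 56.7 CPM. The circSlc45a4 knockdown gave 62.3, 61.2 and 52.9 CPM and the Slc45a4 mRNA knockdown 33.3, 31.3 and 34.1 CPM. The first of these groups overlapped scramble, whereas the second lay below every scramble library and was the tightest of all, with a coefficient of variation of 4.29%. Hey1 fell by 0.61 ± 0.11 on the log2 scale in the Slc45a4 mRNA knockdown (adjusted p = 0.00221), from 50.2 ± 7.43 to 32.9 ± 1.41 CPM. After circSlc45a4 knockdown the mean was 58.8 ± 5.16 CPM and the log2 fold change 0.23 ± 0.11 (95% interval -0.01 to 0.46), which was not called (adjusted p = 0.149). The direct difference was 0.84 ± 0.11 (adjusted p = 1.71e-04), a 1.79-fold higher level in the circSlc45a4 knockdown.

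Hey2 (ENSMUSG00000019789.9, chromosome 10, 30832359 to 30842801, minus strand), the close relative of Hey1, was scarce, with 14 to 80 counts per library. Scramble held 2.10, 1.62 and 1.39 CPM, the circSlc45a4 knockdown 1.79, 1.64 and 1.36 CPM and the Slc45a4 mRNA knockdown 0.614, 0.378 and 0.637 CPM. Scramble and the circSlc45a4 knockdown covered nearly the same range, and every Slc45a4 mRNA knockdown library lay below both. The mean fell from 1.70 ± 0.365 to 0.543 ± 0.144 CPM, and the log2 change of -1.64 ± 0.34 (adjusted p = 0.00490) was the largest shift of any member against scramble. Against the circSlc45a4 knockdown, at 1.60 ± 0.216 CPM, the difference was 1.55 ± 0.33 (adjusted p = 0.00431). Between the circSlc45a4 knockdown and scramble the log2 fold change was -0.08 ± 0.31 (95% interval -0.76 to 0.59, adjusted p = 0.870).

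Hey2 is also made by endothelial cells, so markers of these cells were read beside it. The 9 listed markers summed to 1.56 to 4.51 CPM in scramble, 0.604 to 1.54 CPM in the circSlc45a4 knockdown and 0.949 to 1.25 CPM in the Slc45a4 mRNA knockdown. The marker Cdh5, which did not pass the filter, had 18, 1 and 14 counts in scramble. It had 1, 1 and 0 counts in the circSlc45a4 knockdown and 0 in every Slc45a4 mRNA knockdown library. Not every marker followed it. Kdr had 0.335, 0.0648 and 1.17 CPM in scramble, 0.850, 0.492 and 0.0224 CPM (circSlc45a4) and 0.112, 0 and 0.0831 CPM (Slc45a4 mRNA). Esam had 1.15, 1.04 and 0.679 CPM in scramble, 0.447, 0.273 and 0.224 CPM (circSlc45a4) and 0.586, 0.728 and 0.692 CPM (Slc45a4 mRNA). Of the 3 markers that could be tested, 1 fell in the circSlc45a4 knockdown, beside 13.0% of all genes, and 0 were called in the Slc45a4 mRNA knockdown. By the summed level, the lowest scramble library lay close to the highest of the circSlc45a4 knockdown. The part of endothelial RNA in the scramble level of Hey2 was not tested.

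Nrarp (ENSMUSG00000078202.3, chromosome 2, 25180758 to 25183339, plus strand, a single exon), the feedback inhibitor, lay above scramble in one knockdown and below it in the other. Scramble held 48.9, 55.7 and 46.2 CPM, the circSlc45a4 knockdown 67.5, 64.5 and 60.2 CPM and the Slc45a4 mRNA knockdown 24.8, 32.1 and 44.9 CPM. None of the 3 groups overlapped another, which held for no other member. In the direct comparison the level was 1.89-fold higher in the circSlc45a4 knockdown, a log2 difference of 0.92 ± 0.16 (adjusted p = 0.00131). Against scramble, at 50.2 ± 4.92 CPM, the fall in the Slc45a4 mRNA knockdown to 34.0 ± 10.2 CPM was called, with a log2 fold change of -0.56 ± 0.16 (adjusted p = 0.0301). The rise in the circSlc45a4 knockdown to 64.1 ± 3.68 CPM, 0.35 ± 0.16 (95% interval 0.00 to 0.70), was not (adjusted p = 0.1285). Of all genes, 22.6% were higher without overlap in the circSlc45a4 knockdown than in scramble, as Hes1 and Nrarp were. Another 18.4% were lower without overlap in the Slc45a4 mRNA knockdown, as Hey1, Hey2 and Nrarp were, and the direct comparison gave 20.3%, with these 3 genes. The antisense model Gm38287 overlaps 2051 bases of Nrarp and had 1 to 19 counts, and without a known strand setting its reads cannot be told apart from those of Nrarp.

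Hes6 (ENSMUSG00000067071.8, chromosome 1, 91411483 to 91414038, minus strand), the antagonist of Hes1, had scramble levels of 105.5, 123.7 and 121.7 CPM. The circSlc45a4 knockdown gave 133.9, 130.7 and 97.0 CPM and the Slc45a4 mRNA knockdown 120.5, 145.3 and 145.1 CPM. All groups overlapped. The log2 fold change was 0.04 ± 0.12 (95% interval -0.22 to 0.30, adjusted p = 0.828) in the circSlc45a4 knockdown, 0.23 ± 0.12 (-0.03 to 0.49, adjusted p = 0.219) in the Slc45a4 mRNA knockdown and -0.18 ± 0.12 (-0.44 to 0.08, adjusted p = 0.292) between them. With intervals this narrow, a doubling of Hes6 lies outside all 3.

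**Figure D2:**
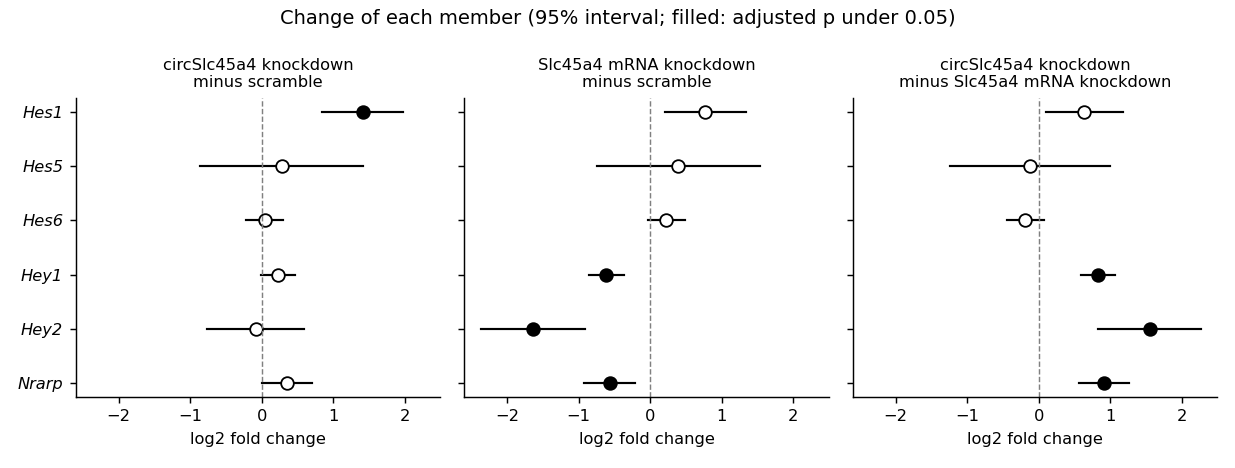
Log2 fold change (x axis) of each of the 6 genes in the 3 comparisons, with the 95% interval as a line and a filled point where the adjusted p was under 0.05. Hes1 is filled in the circSlc45a4 knockdown, and Hey1, Hey2 and Nrarp are filled below 0 in the Slc45a4 mRNA knockdown and above 0 in the direct comparison.

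The Hes1 call in the circSlc45a4 knockdown and the Hey1, Hey2 and Nrarp calls in the direct comparison held under each of the 20 alternatives that were run. The calls of the Slc45a4 mRNA knockdown against scramble held less widely. With Xist as a covariate Hey1 was at -0.56 (adjusted p = 0.0880), Hey2 at -1.47 (adjusted p = 0.1525) and Nrarp at -0.14 (adjusted p = 0.708), and in the circSlc45a4 knockdown Nrarp became 0.96 (adjusted p = 0.00614). Slc45a4 mRNA knockdown replicate 3 had as little Xist as scramble. It stood at 34.1 CPM for Hey1, 0.637 CPM for Hey2 and 44.9 CPM for Nrarp, against 42.1, 1.39 and 46.2 CPM in the lowest scramble library. These are values of 1 library, and the part of sex in the falls after Slc45a4 mRNA knockdown was not tested by them. Without replicate 1 of this knockdown, the library that stood apart, Hey1 was at -0.62 (adjusted p = 0.00478) and Hey2 at -1.73 (adjusted p = 0.0103) against scramble. The fall of Nrarp against scramble was also lost without scramble replicate 1 (adjusted p = 0.0584), scramble replicate 2 (adjusted p = 0.1295), or replicate 1 (-0.38, adjusted p = 0.0708) or 2 (adjusted p = 0.0863) of the Slc45a4 mRNA knockdown. It was lost as well with only the 2 groups compared (adjusted p = 0.0595) and at a minimum change of 1.2-fold (adjusted p = 0.137).

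The course over the 9 libraries showed which genes resembled each other. Hey1, Hey2 and Nrarp were all below their own means in all 3 Slc45a4 mRNA knockdown libraries, and Hes1 was below its mean in all 3 scramble libraries. For each member, the genes most like it were those with the smallest root mean square difference of log2 CPM, each centred on its own mean, over the 9 libraries. Hey1 itself varied by 0.37 (root mean square, log2 CPM) around its mean, and Rhbdd1 followed it within 0.07, Bbx within 0.07 and Susd6 within 0.09. For Nrarp, which varied by 0.45, the closest included Bcl7c at 0.14 and Adcy5 at 0.15. For Hey2, which varied by 0.80, they were Mir22hg at 0.27, Mat2b at 0.29 and Erlin2 at 0.31. Hes1 varied by 0.69, and the closest genes were Fam69c at 0.24, the bHLH inhibitor Id4 at 0.25 and Dapp1 at 0.28. Hes5 had no close match. It varied by 0.76, and its nearest genes, Minar1, Zfp992 and Rasl12, stood at 0.57, 0.58 and 0.59. Hes6 varied by 0.18, and its nearest were Ankrd54 at 0.09 and the pseudogenes Rpl36-ps2 at 0.08 and Rpl36-ps3 at 0.09, whose reads can be shared with other copies. The nearest genes are picked as such, among genes with average log2 CPM of at least 1 and without predicted models, so the closeness is a description.

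**Figure D3:**
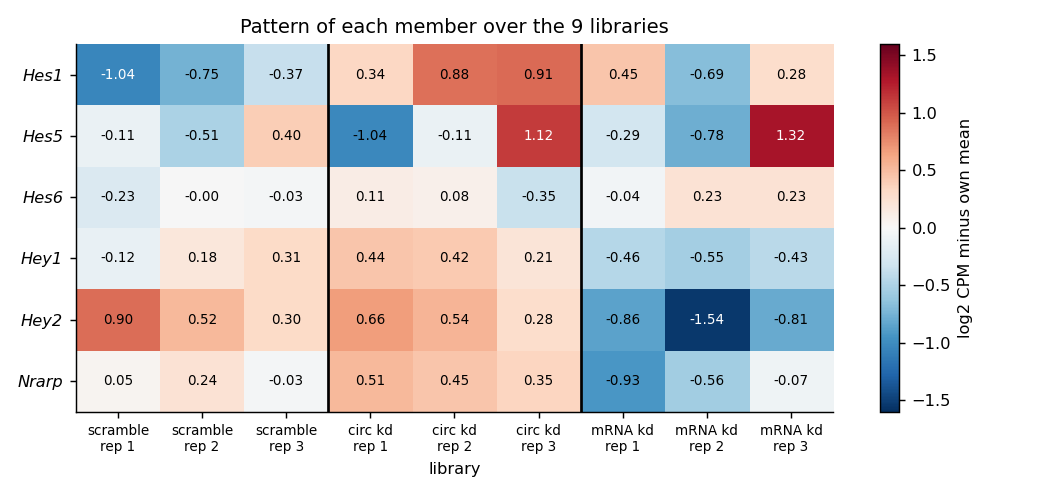
Log2 CPM of each of the 6 genes minus its own mean over the 9 libraries (colour and printed value), with libraries as columns in the order scramble, circSlc45a4 knockdown (circ kd) and Slc45a4 mRNA knockdown (mRNA kd). Hey1, Hey2 and Nrarp are negative in all 3 Slc45a4 mRNA knockdown libraries, and Hes5 reaches its highest values in replicate 3 of both knockdowns.

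The rest of the family was nearly silent. Hes2 and Hes3 had 0 counts in all 9 libraries, which allows up to 0.066 CPM at the greatest depth and 0.142 CPM at the lowest. Hes7 had at most 7 counts, Heyl at most 5 and Helt at most 14. The related repressor Bhlhe40 was well read, with scramble levels of 4.54, 6.03 and 6.88 CPM. The circSlc45a4 knockdown gave 10.8, 9.35 and 8.49 CPM and the Slc45a4 mRNA knockdown 4.72, 3.59 and 3.88 CPM. The circSlc45a4 knockdown lay above both other groups, with log2 differences of 0.71 ± 0.18 from scramble (adjusted p = 0.0116) and 1.23 ± 0.18 from the Slc45a4 mRNA knockdown (adjusted p = 3.90e-04). The first was lost without circSlc45a4 knockdown replicate 1 (adjusted p = 0.0551) and with Xist as a covariate (adjusted p = 0.300).

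Receptors and ligands stand upstream of the effectors. In the circSlc45a4 knockdown 1 of 4 receptors was higher and 0 lower, and of 8 ligands and ligand-like genes 0 were higher and 5 lower, with a median log2 fold change of -1.12, beside 14.1% of all genes higher and 13.0% lower. The receptor Notch2 had scramble levels of 31.7, 40.9 and 35.7 CPM, and the knockdowns gave 147, 149.8 and 144 CPM (circSlc45a4) and 49.3, 44.4 and 64.4 CPM (Slc45a4 mRNA). No group overlapped another, and the direct difference was 1.48 ± 0.13 on the log2 scale (adjusted p = 6.53e-06). Notch1, the main receptor of cortical progenitors, had scramble levels of 126, 166 and 175 CPM, and the knockdowns gave 149, 151 and 170.1 CPM (circSlc45a4) and 109, 119.5 and 153 CPM (Slc45a4 mRNA). No comparison of it was called. Among the ligands Jag1 fell by 1.36 ± 0.25 (adjusted p = 0.00139) and Dll3, which acts inside the cell on other ligands and receptors, fell by 1.25 ± 0.17 (adjusted p = 1.61e-04). Dll1, the main ligand of newborn neurons, had scramble levels of 71.1, 94.7 and 115 CPM and 131, 101 and 96.8 CPM after circSlc45a4 knockdown, without a call. After Slc45a4 mRNA knockdown 1 of 4 receptors was higher, 0 lower, and 1 of 8 ligands lower, 0 higher, with medians of -0.13 and -0.17. Over all genes 8.92% were higher there and 9.09% lower.

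Of 17 modifiers of receptors and ligands, 5 rose and 2 fell in the circSlc45a4 knockdown, and 3 rose and 4 fell in the Slc45a4 mRNA knockdown. Over all genes 14.1% rose and 13.0% fell in the circSlc45a4 knockdown, and 8.92% rose and 9.09% fell in the Slc45a4 mRNA knockdown. The fringe glycosyltransferases, which set how a receptor responds to its ligands, moved in opposite directions in the circSlc45a4 knockdown. Lfng rose by 1.08 ± 0.19 (adjusted p = 9.15e-04) from 7.70, 12.2 and 13.7 CPM to 21.7, 23.9 and 26.0 CPM, and Mfng fell by 0.89 ± 0.10 (adjusted p = 2.40e-05). Mib1, the ubiquitin ligase that ligands need to signal, rose by 0.61 ± 0.07 (adjusted p = 6.25e-05). After Slc45a4 mRNA knockdown Dtx1, a Deltex ubiquitin ligase and Notch target, fell by 0.99 ± 0.17 (adjusted p = 0.00171), from 126, 130.5 and 106 CPM to 40.1, 75.0 and 66.9 CPM. This call was lost with Xist as a covariate (-0.79, adjusted p = 0.1105). Of 10 proteases that cleave the receptor, 2 rose and 1 fell in the circSlc45a4 knockdown, and 0 were called in the Slc45a4 mRNA knockdown.

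In the nucleus the DNA-binding partner Rbpj rose in both knockdowns. Scramble held 88.8, 93.0 and 96.0 CPM, the circSlc45a4 knockdown 183, 185 and 198 CPM and the Slc45a4 mRNA knockdown 198, 181 and 203 CPM. The difference between the knockdowns was -0.04 ± 0.07 (95% interval -0.20 to 0.12, adjusted p = 0.740). Hey1, Hey2 and Nrarp differed between the same libraries by 0.84 to 1.55. A link between the level of Rbpj and those of the members was not tested. The coactivators Maml1 and Maml3 fell in the Slc45a4 mRNA knockdown, by 0.49 ± 0.11 (adjusted p = 0.00747) and 0.73 ± 0.16 (adjusted p = 0.00690). The third, Maml2, rose there by 0.42 ± 0.14 (adjusted p = 0.0459), a call lost in 15 of 20 alternatives. The calls of Maml1 and Maml3 were lost with Xist as a covariate (adjusted p = 0.287 and 0.227), and Maml1 also at a minimum change of 1.2-fold (adjusted p = 0.0860). Over the 13 genes of the nuclear complex, 2 rose and 1 fell in the circSlc45a4 knockdown, and 4 rose and 3 fell in the Slc45a4 mRNA knockdown. Of all genes 14.1% rose and 13.0% fell in the former, and 8.92% rose and 9.09% fell in the latter. The 2 of 13 that rose in the former were thus near the share of all genes. Of 8 corepressor genes 1 rose in the circSlc45a4 knockdown, also near that share, and 0 fell. It was Tle4, which rose by 0.79 ± 0.12 (adjusted p = 3.44e-04), a call lost with Xist as a covariate (adjusted p = 0.0628). In the Slc45a4 mRNA knockdown 1 of the 8 fell, Tle1 at -0.33 (adjusted p = 0.00739), and 0 rose.

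Among the genes that Hes repressors act on, the proneural factor Neurog1 went from 9.28, 11.7 and 15.53 CPM to 3.89, 5.08 and 2.86 CPM after circSlc45a4 knockdown. Every library of that group lay below scramble, and the fall was by 1.64 ± 0.23 on the log2 scale (adjusted p = 1.95e-04). After Slc45a4 mRNA knockdown Neurog1 was at 21.2, 14.9 and 16.6 CPM, a log2 fold change of 0.52 ± 0.22 that was not called (adjusted p = 0.116). Neurog2, far more abundant, had 170, 204 and 206 CPM in scramble and 175.5, 203.7 and 145.5 CPM after circSlc45a4 knockdown, without a call. Of 5 tested proneural genes 1 was lower and 0 higher in the circSlc45a4 knockdown, beside 13.0% of all genes lower and 14.1% higher. In the Slc45a4 mRNA knockdown 0 were lower and 1 higher, beside 9.09% of all genes lower and 8.92% higher. A link between the levels of Neurog1 and Hes1 was not tested. Among 9 other known Notch targets, a list that also holds Fabp7, Lfng and Dtx1, 4 rose and 0 fell in the circSlc45a4 knockdown, and 3 rose and 1 fell in the Slc45a4 mRNA knockdown. Their median log2 fold changes were 0.79 and 0.17. Of the 80 tested genes in all these lists, 17 rose and 11 fell in the circSlc45a4 knockdown, and 14 rose and 9 fell in the Slc45a4 mRNA knockdown. The shares of all genes given above stand beside these counts and those of the other targets. For the 11 of 80 that fell in the circSlc45a4 knockdown, the share was near the 13.0% of all genes.

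**Figure D4:**
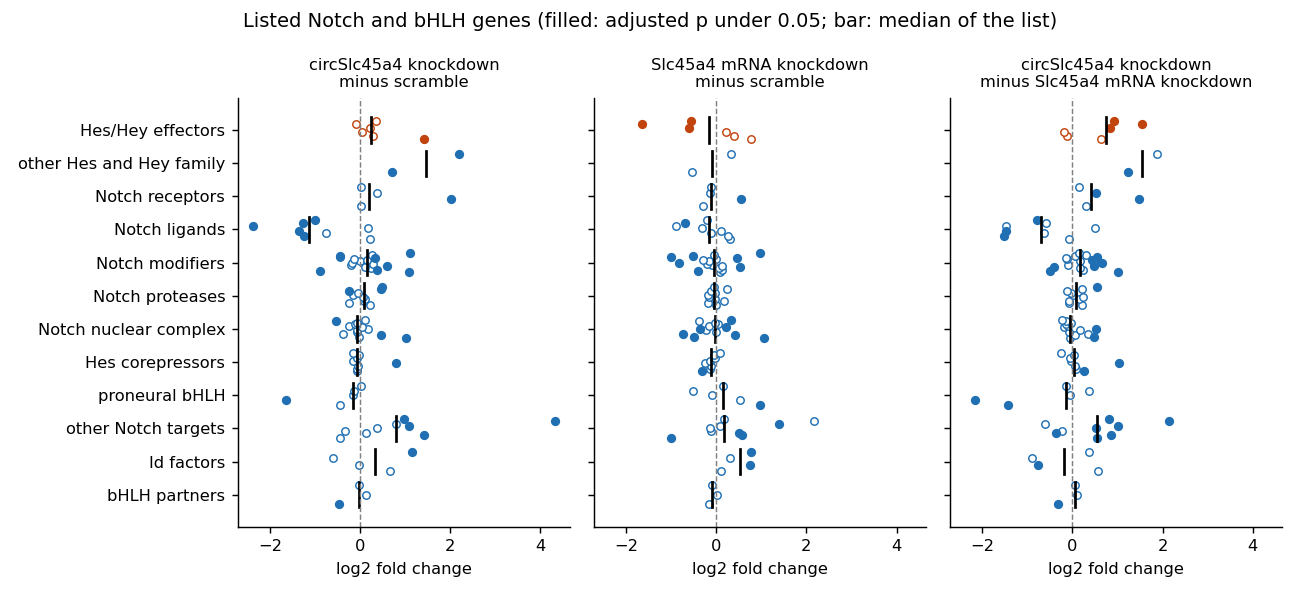
Log2 fold change (x axis) of each tested gene of the Hes and Hey effectors (orange) and of the other Notch and bHLH lists (blue) in the 3 comparisons, filled where the adjusted p was under 0.05, with a bar at each list's median. The ligands lie mostly below 0 in the circSlc45a4 knockdown, and the effectors' called genes lie below 0 in the Slc45a4 mRNA knockdown and above 0 in the direct comparison.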

How the data were processed

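PolyA RNA of sorted GFP+ cells was sequenced in 9 libraries. The authors deposited raw counts of reads for 53379 versioned Ensembl IDs, whole numbers that had not been normalized. Per the submitters' processing notes, the build was mm10 and the tools were STAR 2.4.2a, bcl2fastq 2.17.1.14 and DESeq2, with no role or order stated. What counted the reads, with which annotation release and strand setting, is not given in the sources used here. IDs were joined to GENCODE M21 (GRCm38), which gave 53274 symbols. Genes passing filterByExpr in edgeR 4.0.16 (minimum count 10) were fitted, after scaling by the trimmed mean of M-values, with 1 term per group over all 9 libraries (6 residual degrees of freedom, common biological coefficient of variation 13.9%). Each pair of groups was tested with the quasi-likelihood F test, with Benjamini-Hochberg adjustment over 17760 genes. The standard error was taken as the fold change on the log2 scale over the root of F. The fit was also run on simulated counts with known changes in a small set of genes. Those counts held no difference of sex and no outlying library, so they do not measure the error of the calls made here. Where a library had 0 counts, up to 3 counts were allowed for, which reflects counting error alone.

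The 6 members and all lists were chosen with earlier results of these data known. Every member was named. From each list at most 4 called genes per comparison, by smallest p, were named, and the receptors, ligands, Rbpj, Maml1 to Maml3, Neurog1, Neurog2 and Heyl could be named in any case. Not every gene under this rule is reported here. The genes that stood in the text for other reasons (Cdh5, Kdr, Esam, Hes2, Hes3, Hes7 and Helt) and the remarks on Xist and Ddx3y were chosen after their values were seen. Genes most like each member, at most 3, were taken among genes with average log2 CPM of at least 1, without predicted models. Where nothing in the labels says that libraries came from separate litters, p-values measure the spread between these libraries. Alternatives were RLE and upper-quartile factors, limma-voom (limma 3.58.1), DESeq2 1.42.0 (Wald), no filter, a filter of 1 CPM in 3 libraries, only the 2 groups compared, a replicate block, log2 Xist as a covariate, a minimum change of 1.2-fold, thinning to the smallest library and leaving out each library in turn.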

Additional observations from a re-analysis of the deposited data

How the results depend on the processing

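Of 20 alternatives, none ended the Hes1 call in the circSlc45a4 knockdown (log2 fold change 1.27 to 1.63) or the direct-comparison calls of Hey1 (0.78 to 0.91), Hey2 (1.35 to 1.69) and Nrarp (0.73 to 1.17). The labels do not say whether equal replicate numbers mark a pair. Deviations of same-numbered libraries correlated at -0.129 to 0.0936 and those of different-numbered libraries at -0.0991 to 0.155. These correlations show no pairing by number but cannot exclude one. With the replicate block the members called stayed at 1, 3 and 3 in the comparisons of the circSlc45a4 knockdown with scramble, of the Slc45a4 mRNA knockdown with scramble, and of the knockdowns, and all genes called were 4412, 2713 and 4189, against 4814, 3200 and 4632.

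The number of members called in the circSlc45a4 knockdown became 2 without a filter, with only the 2 groups compared or with Xist as a covariate, and 1 to 2 when 1 library was left out. In the Slc45a4 mRNA knockdown it became 5 without a filter and 0 with Xist as a covariate, and 2 to 4 when 1 library was left out. All genes called fell to 1363 and 806 against scramble with Xist as a covariate, and to 2430, 1197 and 2073 in the 3 comparisons at a minimum change of 1.2-fold. Leaving out 1 library gave 3386 to 5548, 1760 to 3083 and 3059 to 4610. Listed Notch and bHLH genes called were 12 and 6 against scramble with Xist as a covariate, and 18, 9 and 16 at a minimum change of 1.2-fold, against 28, 23 and 26. Leaving out 1 library gave 13 to 23 in the Slc45a4 mRNA knockdown. Of the 61 calls of listed genes and of Slc45a4 that were followed, 23 were lost with Xist as a covariate and 18 at a minimum change of 1.2-fold, and none reversed.

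Directions turned for uncalled members. Hes6 in the circSlc45a4 knockdown was -0.013 with upper-quartile factors and -0.044 to 0.18 with 1 library left out. Hey2 there was 0.15 with Xist as a covariate and -0.21 to 0.085 with 1 library left out. Hes5 was -0.48 to 0.65, -0.50 to 0.75 and -0.88 to 0.78 in the 3 comparisons with 1 library left out, and 1.87, 1.35 and 0.52 with Xist as a covariate. The cause was not tested. Hey2, with 14 to 80 counts per library, is the member whose precision depth limits most.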
